A study of Mus musculus with 16 samples.

Results

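The chemokine windows are 5 stretches of the mouse genome (build mm9) chosen to hold 10 chemokine genes, and their members are the H3K4me1 summits listed inside them. Chromosome 11 carried the Ccl2/Ccl7 window from 81800000 to 82050000 and the Ccl3/Ccl4/Ccl5 window from 83270000 to 83550000. The Ccl22/Ccl17 window ran from 97220000 to 97380000 on chromosome 8. On chromosome 5 lay the Cxcl1/Cxcl2 window from 91150000 to 91380000 and the Cxcl10 window from 92720000 to 92850000. The windows covered 1050 kb and held 106 of the 79796 summits listed for dendritic cells and 116 of the 81860 listed for 3T3 cells. The rule places them by gene.

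H3K4me1 was mapped by ChIP-seq without stimulation in dendritic cells, which present antigen to T cells, and in 3T3, an established mouse fibroblast line, as part of a series of 16 samples meant to list candidate enhancers. The dendritic cells were grown from bone marrow progenitors that had been infected with a retrovirus carrying a hairpin against JmjD2d, a histone demethylase. They were selected with histidinol, then kept for 4 days in GM-CSF with SCF and for another 4 days in GM-CSF alone. The 3T3 cells were grown under standard conditions, and no hairpin is named for them, so cell type and hairpin cannot be told apart. The 3T3 sample is labelled as dendritic cells in its cell type field, but as 3T3 in its title, in its description, in its growth protocol and in the header of its file, and was taken as 3T3. Each cell type is 1 library: no difference between the lists has a replicate check, no test was made, and the intervals given cover counting error only and take summits as independent. Marker genes of the cell types were not placed on mm9, so the labels were not checked against marker loci.

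Chemokines are small secreted proteins that steer the movement of leukocytes through receptors on their surface. They are named for the spacing of their first cysteines, adjacent in the CC class and separated by another residue in the CXC class, and many lie side by side in gene clusters. LPS and TNF-alpha, the stimuli of the series, switch on many of these genes through the transcription factor NF-kB. H3K4me1 is a histone mark of enhancers and of the flanks of promoters, and it can be present before a gene is switched on.

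In the order given by the RefSeq gene table (GRCm38.p6), Ccl2 and Ccl7 are followed by Ccl11, Ccl12, Ccl8 and Ccl1. Ccl5 is followed by Ccl9, Ccl6, Ccl3 and Ccl4. Ccl22 and Ccl17 stand on either side of Cx3cl1, a chemokine with a membrane anchor. Cxcl1 and Cxcl2 end a row of Cxcl5, Ppbp, Pf4, Cxcl3 and Cxcl15, and the listed start of Art3 lies between those of Cxcl9 and Cxcl10. That table is of another build than the summit lists, so no summit below is assigned to a gene, and distances to gene starts are not given.

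The sequences just upstream of Cxcl1, Cxcl2 and Cxcl10 are shown because these genes were the members whose upstream bases held a match to the NF-kB consensus, the factor that both stimuli of the series act through. The promoter table held 6 of the 10 members (Ccl3, Ccl17, Ccl22, Cxcl1, Cxcl2 and Cxcl10). The 250 bases before each gene's start were searched on both strands for the kB consensus, for GAAA followed by any 2 bases and GAAA (the interferon response element, ISRE) and for TGANTCA (AP-1, which reads the same on both strands). Capitals mark the matches, and the sequences are from RefSeq, GRCm38.p6, 5′ to 3′ on the strand of the gene: chr5:90890995-90891244 (plus strand) for Cxcl1, chr5:90903649-90903898 (plus) for Cxcl2 and chr5:92348890-92349139 (minus) for Cxcl10.
Cxcl1: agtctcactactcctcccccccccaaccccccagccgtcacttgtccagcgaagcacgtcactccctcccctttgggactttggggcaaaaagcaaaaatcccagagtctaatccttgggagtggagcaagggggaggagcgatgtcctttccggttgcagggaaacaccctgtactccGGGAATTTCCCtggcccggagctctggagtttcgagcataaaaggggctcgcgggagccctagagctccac
Cxcl2: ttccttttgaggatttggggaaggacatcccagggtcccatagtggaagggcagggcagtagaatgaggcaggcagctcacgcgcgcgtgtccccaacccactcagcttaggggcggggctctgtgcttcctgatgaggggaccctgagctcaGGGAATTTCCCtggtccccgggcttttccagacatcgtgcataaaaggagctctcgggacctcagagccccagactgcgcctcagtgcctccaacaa
Cxcl10: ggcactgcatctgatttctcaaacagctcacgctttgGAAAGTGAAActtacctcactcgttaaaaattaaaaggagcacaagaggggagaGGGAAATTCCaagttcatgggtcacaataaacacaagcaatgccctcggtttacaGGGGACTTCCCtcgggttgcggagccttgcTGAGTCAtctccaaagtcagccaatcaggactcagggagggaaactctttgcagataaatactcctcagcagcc
Cxcl1 and Cxcl2 carried the same kB match, GGGAATTTCC, starting 71 bases before the gene start in Cxcl1 and 97 bases before it in Cxcl2. In both genes a match on the opposite strand overlapped it, shifted by a base. Cxcl10 held GGGAAATTCC 159 bases before its start and a pair of overlapping matches, GGGGACTTCC and GGGACTTCCC, at 104 and 103 bases. It also held the ISRE match GAAAGTGAAA at 213 bases and the AP-1 match TGAGTCA at 74 bases. Of all 32851 upstream stretches of this length in the table, 7.25% held a kB match, 2.98% an ISRE match and 6.75% an AP-1 match. In Ccl3, Ccl17 and Ccl22 none of these letters was found in the 250 bases searched, which says nothing about the factors there.

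H3K4me1 summits were dense over the chemokine windows in both cell types before any stimulus. Dendritic cells had 106 summits, or 10.1 per 100 kb, against 3.03 per 100 kb over the genome, which is 3.34 times as many. The 3T3 cells had 116, or 11.05 per 100 kb against 3.10, which is 3.56 times as many. Dendritic cells thus held 47.7% of the window summits (95% interval 41.0 to 54.5), and they held 49.4% of the summits of both lists. That interval includes the share of the whole lists, so no leaning of the windows towards either cell type was detectable.

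The median spacing of neighbouring summits in the windows was 6347 bp for dendritic cells (8173 bp over the whole list) and 5838 bp for 3T3 (9167 bp). Cut into bins of 10 kb, 62 of the 105 bins of the windows (59.0%) held summits of both lists, whereas 12.2% of the bins of the genome did. Summits of dendritic cells alone were found in 9 bins (8.57%, genome 9.66%) and summits of 3T3 alone in 16 (15.2%, genome 11.0%). Neither list had a summit in 18 bins (17.1%, genome 67.2%). The larger differences from the genome thus lay in bins marked in both cell types and in neither. Denser lists fill more bins jointly, and the part of density in the 59.0% was not tested.

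**Figure D1:**
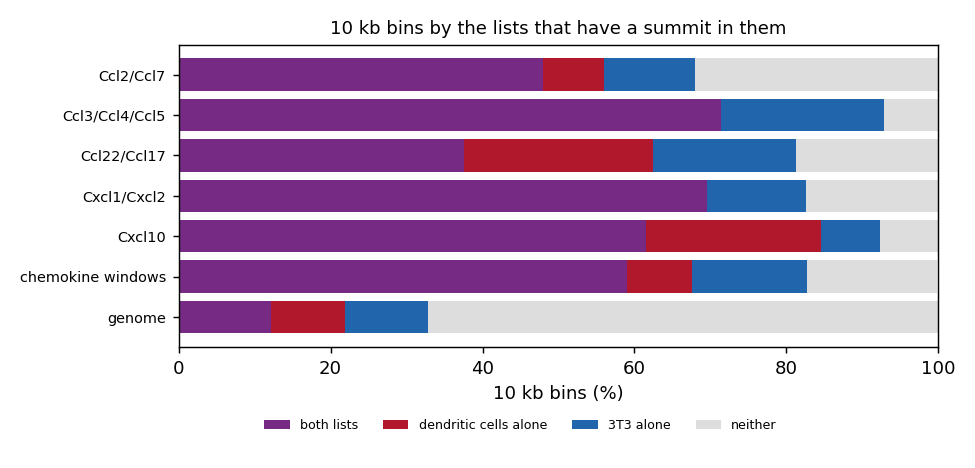
Share of 10 kb bins (horizontal axis, %) with H3K4me1 in both lists, in dendritic cells alone, in 3T3 alone or in neither, for each window, for the 5 windows together and for the genome. Bins with both reach 59.0% in the windows and 12.2% in the genome, and the Ccl3/Ccl4/Ccl5 and Cxcl1/Cxcl2 windows have no bin with dendritic cell summits alone.

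The number of summits differed between the windows. To place each window, the genome was cut into tiles of the window's own length, not matched for gene content. The Ccl3/Ccl4/Ccl5 window held 34 dendritic cell summits (exact Poisson 95% interval 23.5 to 47.5) where the median tile held 3, and 1.90% of the 9407 tiles held as many. It held 43 3T3 summits (31.1 to 57.9) against a median of 5, and 0.0106% of the tiles (1 tile) held as many. None of the tiles (0%) reached both numbers together. In the Cxcl1/Cxcl2 window there were 26 dendritic cell summits (17.0 to 38.1), a number reached by 4.22% of 11455 tiles, and 29 3T3 summits (19.4 to 41.6), reached by 1.10%. Both numbers together were reached by 0.384% of the tiles. Both windows were therefore more crowded than most stretches of their size, in the fibroblast line as well as in the immune cells.

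The Cxcl10 window held 15 dendritic cell summits (8.40 to 24.7), reached by 5.89% of 20274 tiles, and 12 3T3 summits (6.20 to 21.0), reached by 10.6%. In the Ccl2/Ccl7 window the counts were 18 (10.7 to 28.4) and 19 (11.4 to 29.7), reached by 18.5 and 15.2% of 10540 tiles. The Ccl22/Ccl17 window held 13 of each list (6.92 to 22.2), reached by 15.9 and 14.0% of 16472 tiles. Both numbers together were reached by 2.94% of the tiles for Cxcl10, 8.92% for Ccl2/Ccl7 and 7.49% for Ccl22/Ccl17. The dendritic cell share ran from 44.2% (32.8 to 55.9) in the Ccl3/Ccl4/Ccl5 window to 55.6% (35.3 to 74.5) in the Cxcl10 window. Every one of the 5 intervals included 49.4%.

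**Figure D2:**
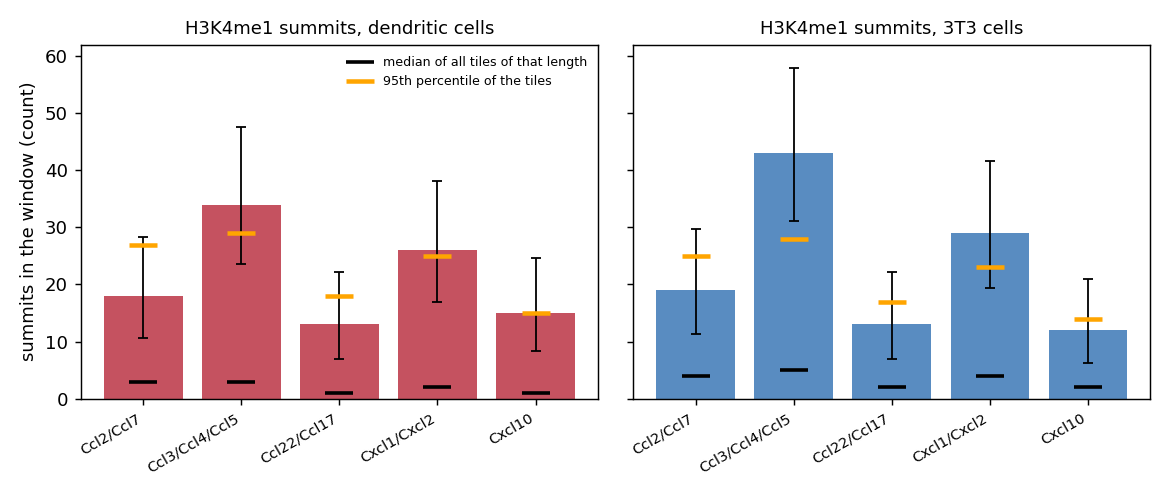
Number of H3K4me1 summits (vertical axis, count) in each window for dendritic cells (left) and 3T3 cells (right), with exact Poisson 95% intervals. Black marks give the median and orange marks the 95th percentile of all genome tiles of the same length: the Ccl3/Ccl4/Ccl5 and Cxcl1/Cxcl2 bars pass the orange mark in both lists.

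Window summits of one cell type often had a counterpart in the other. Summits with one of the other list no more than 1000 bp away were called shared. Of the 106 dendritic cell summits, 47 were shared (44.3%, exact Clopper-Pearson 95% interval 34.7 to 54.3), against 30.6% of the whole list. Of the 116 3T3 summits, 46 were shared (39.7%, 30.7 to 49.2), against 29.8%. Among the 39898 highest-scoring summits of each list, the shares were 28.1% (17.0 to 41.5) of 57 and 22.2% (13.3 to 33.6) of 72. Over the genome, 22.3% of these highest-scoring summits were shared in each list. Both intervals included that level, so the excess was not detectable at that threshold. Over all listed summits, the other 59 and 70 were without a counterpart (55.7 and 60.3%, against 69.4 and 70.2% of the lists). Summits far from the other list were few: 10 of the dendritic cell summits (9.43%, whole list 40.7%) and 26 of the 3T3 summits (22.4%, whole list 43.9%) lay over 5 kb from one.

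Crowding moved with sharing. The median dendritic cell summit of the windows had 12 3T3 summits within 50 kb, those within 1000 bp left out, against 6 for the whole list. Among all 22336 dendritic cell summits with 9 to 14 such neighbours, 38.7% were shared, and the 62 window summits in that range were shared in 58.1% of cases. Among the 19929 3T3 summits with 9 to 12 neighbours from dendritic cells, 42.8% were shared, beside 48.4% of the 64 window summits in that range. Each range runs between the quartiles of the window summits. Over all window summits the shares were lower, at 44.3 and 39.7%, so those outside the ranges were shared less often. No intervals were made for the shares within the ranges. The part of crowding in the shared share was not tested further.

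Over all listed summits and within 1000 bp, sharing was highest at Cxcl10 and lowest at Ccl22/Ccl17. In the Cxcl10 window 8 of 15 dendritic cell summits (53.3%, 26.6 to 78.7) and 8 of 12 3T3 summits (66.7%, 34.9 to 90.1) were shared. In the Cxcl1/Cxcl2 window 13 of 26 (interval 29.9 to 70.1%) and 13 of 29 (44.8%, 26.4 to 64.3) were shared. The Ccl3/Ccl4/Ccl5 window shared 16 of 34 (47.1%, 29.8 to 64.9) and 16 of 43 (37.2%, 23.0 to 53.3), and the Ccl2/Ccl7 window 7 of 18 (38.9%, 17.3 to 64.3) and 7 of 19 (36.8%, 16.3 to 61.6). At Ccl22/Ccl17, 3 of 13 dendritic cell summits (23.1%, 5.04 to 53.8) and 2 of 13 3T3 summits (15.4%, 1.92 to 45.4) were shared. The intervals of neighbouring windows in this order overlap widely. Only the 3T3 interval at Cxcl10 excluded the share of its whole list.

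The order of the windows was stable only in part. Among the highest-scoring summits, Cxcl1/Cxcl2 was lowest, with 9.09% of 11 dendritic cell summits (0.230 to 41.3) and 5.56% of 18 3T3 summits (0.141 to 27.3) shared. Ccl22/Ccl17 then had 20.0% of 5 and 12.5% of 8. Ties at the cut were broken by chromosome name and position. Of window summits with the dendritic cell score of 36, those on chromosome 11 were kept and those on chromosome 5 left out. The latter were 91186732 and 91197546 at Cxcl1/Cxcl2, each 3 bp from a listed 3T3 summit. The highest dendritic cell share was 44.4% of 18 at Ccl3/Ccl4/Ccl5, beside 3 of 10 at Cxcl10 (6.67 to 65.2%). With counterparts allowed within 2000 bp it was again at Ccl3/Ccl4/Ccl5, at 70.6%, beside 60.0% at Cxcl10.

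**Figure D3:**
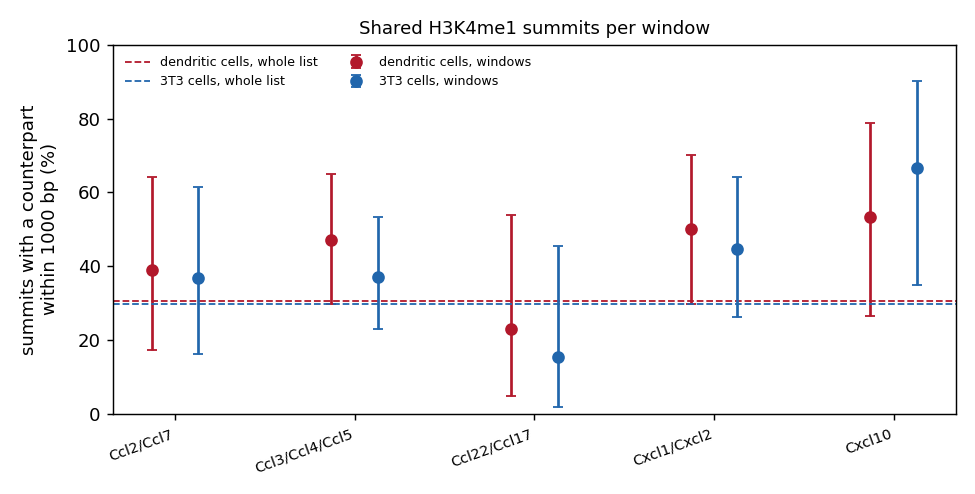
Percentage of H3K4me1 summits with a summit of the other list within 1000 bp (vertical axis), per window, with exact 95% intervals, for dendritic cells (red) and 3T3 cells (blue). Dashed lines give the whole lists, at 30.6 and 29.8%, and the Ccl22/Ccl17 points, at 23.1 and 15.4%, are the lowest.

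The score of a summit, taken as the height of the signal there, was compared within each list. Dendritic cell summits of the windows had a median score of 37, against 36 for the whole list, and 54 of 106 (50.9%) were above the list's median. For 3T3 the median was 44 against 33, and 72 of 116 (62.1%) were above the list's median. High summits made up a larger part of the windows than of the lists. The top decile of the list held 18 of the dendritic cell summits (17.0%, background 9.80%) and 24 of the 3T3 summits (20.7%, background 9.71%). Of the 26 dendritic cell summits at Cxcl1/Cxcl2, only those of 84 and 81 passed the decile score of 79. At Cxcl10 only the summit of 91 passed it among 15. In 3T3, with a decile score of 75, only the summit of 91 passed among 12 at Cxcl10. The dendritic cell median was highest at Ccl2/Ccl7, at 68, and the other windows lay between 33 and 44. In 3T3 the Ccl2/Ccl7, Ccl3/Ccl4/Ccl5 and Ccl22/Ccl17 windows had medians of 46, 45 and 44, and the Cxcl1/Cxcl2 and Cxcl10 windows 36 and 34.5.

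**Figure D4:**
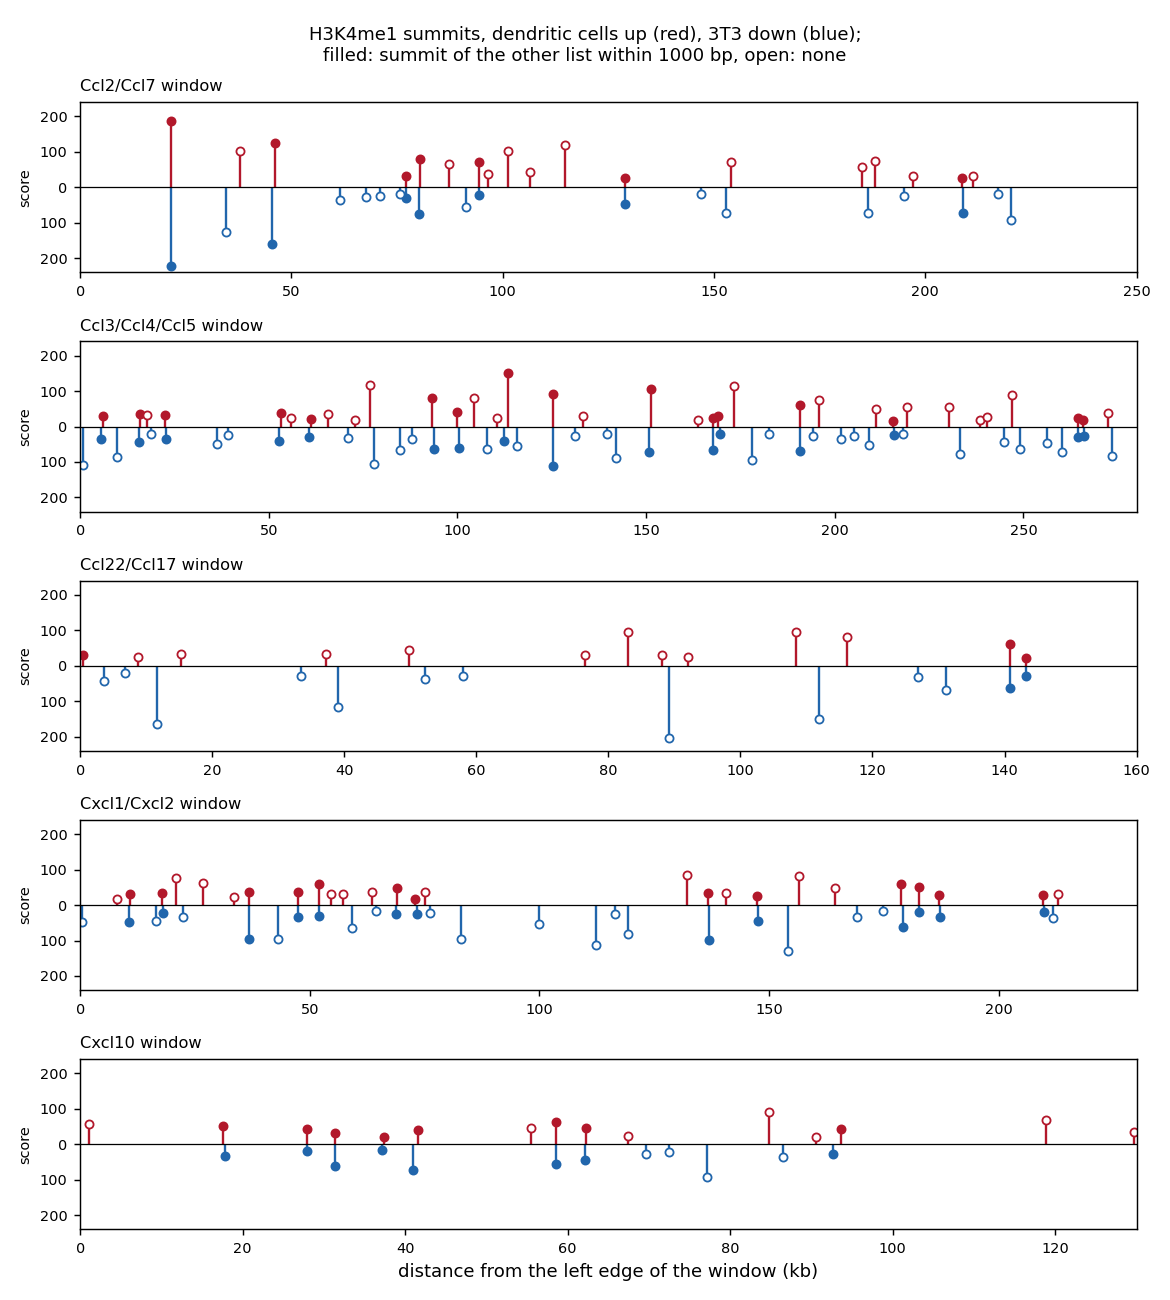
H3K4me1 summits of each window by distance from its left edge (horizontal axis, kb), with the score of dendritic cell summits drawn upwards (red) and of 3T3 summits downwards (blue), each on its own list's scale. Filled circles have a summit of the other list within 1000 bp and open circles have none: nearly all tall summits at Ccl22/Ccl17 are open, and the tallest of Ccl2/Ccl7 is filled in both.

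Ccl2 and Ccl7 attract monocytes through the receptor CCR2. Their window held the highest dendritic cell summit of all 5 windows, at 81821578 with a score of 188. A 3T3 summit 47 bp away scored 222, the highest 3T3 score of the windows, and each stood at percentile 99.9 of its list. The next shared site, 634 bp between its summits, scored 125 at 81846048 in dendritic cells and 161 at 81845414 in 3T3. The left part of the window was thus strongly marked in both cell types.

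Further right the lists parted in places. Between 81861431 and 81877086 came 5 3T3 summits in a row over 15.7 kb, with low scores of 37, 27, 25, 20 and 29. The last of these was shared, 3 bp from a dendritic cell summit at 81877089, and another shared site followed at 81880510. Beyond it, from 81894418 to 81928977, came 6 dendritic cell summits over 34.6 kb with no 3T3 summit between them, scoring 71, 36, 103, 44, 119 and 25. The first and last of the dendritic cell row were shared and the 4 between them were not. At 81894418 the dendritic cell score of 71 stood beside a 3T3 score of 22, and at 81928977 a score of 25 stood beside 46. These rows were singled out after their values were seen. The runs that follow the fixed limit of 5000 bp between neighbours were 3 dendritic cell summits from 81894418 to 81901343 and 5 3T3 summits from 81867692 to 81880350. No summit of either list lay between 81953997 and 81985020, a gap of 31.0 kb.

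At the right end of this window, a shared site at 82008685 scored 26 in dendritic cells and 74 in 3T3 (at 82008752), a log2 ratio of 1.63 above the median of all pairs. The remaining shared sites, at 81877089 and 81880510 to the left of the dendritic cell row, scored 33 and 79 in dendritic cells and 29 and 75 in 3T3. Their relative log2 ratios were -0.06 and 0.05.

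Ccl3, Ccl4 and Ccl5 are inflammatory CC chemokines that draw monocytes and T cells. Their window was the most evenly filled: its longest stretch without a summit was 13.6 kb, from 83309121 to 83322694, and 2 of its 28 bins of 10 kb held none. The highest dendritic cell summit, at 83383315, scored 151. The nearest 3T3 summit lay 928 bp away and scored 42, a log2 ratio of -1.72 relative to the median pair, towards dendritic cells. The next dendritic cell summit, at 83346684, scored 118 with a 3T3 summit of 105 lying 1103 bp away, just outside the limit for sharing.

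The highest 3T3 summit of this window, at 83395338, had a score of 110, with a dendritic cell summit of 92 only 40 bp off. The second, at 83270840, scored 109 and had its nearest dendritic cell summit 2549 bp away. Of the 16 shared pairs, 12 had a ratio above the median pair and 4 below it. A site at 83437781 went furthest towards 3T3, with 24 in dendritic cells and 66 in 3T3 (relative log2 ratio 1.58). Sites at 83460823 and 83534405 had summits 6 and 8 bp apart in the lists. The first scored 61 in dendritic cells and 69 in 3T3, the second 23 and 29.

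The remaining pairs of this window, 11 in number, lay between 116 and 668 bp apart and had relative log2 ratios from -0.46 to 0.71. The longest run of dendritic cell summits held 4, from 83433812 to 83443273, with scores from 19 to 115. That of 3T3 also held 4, from 83526318 to 83536132, with scores from 28 to 72. Neither list had more than 4 summits in a row without the other: the longest such rows were 2 for dendritic cells and 4 for 3T3, the latter from 83292752 to 83322694 over 29.9 kb. Summits of the lists thus alternated along the window.

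Ccl22 and Ccl17 are ligands of CCR4 that dendritic cells are known to make and that attract T cells. Both lists had 13 summits there, but mostly at different positions. The 4 highest 3T3 summits, at 97309158, 97231562, 97331928 and 97259027, scored 204, 165, 149 and 116 and stood at percentiles 97.6 to 99.9 of the 3T3 list. Their nearest dendritic cell summits lay 1052, 2803, 3519 and 1681 bp away, so none was shared. The highest dendritic cell summits, at 97302865 and 97328409, scored 96 each (percentile 94.9), with the nearest 3T3 summit 6293 and 3519 bp away.

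Each of these 4 tall 3T3 summits lay between dendritic cell summits that were not shared, an arrangement noticed after the values were seen. The 3T3 summit of 149 lay between dendritic cell summits of 96 at 97328409 and 80 at 97336128. The 3T3 summit of 204 lay between dendritic cell summits of 31 at 97308106 and 25 at 97312044. Those of 165 and 116 lay between 24 at 97228759 and 33 at 97235237, and between 33 at 97257346 and 44 at 97269771. The sites shared inside the window were 97360898, with 62 in dendritic cells and 63 in 3T3, and 97363187, with 23 and 28. A further dendritic cell summit, at 97220490 with a score of 31, was shared with a 3T3 summit at 97219796, outside the window.

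Chromosome 8 as a whole leaned towards 3T3: dendritic cells held 39.8% of its summits (38.8 to 40.8), and its pairs had a median relative log2 ratio of 0.47. In the Ccl22/Ccl17 window 13 of the 26 summits were of dendritic cells (29.9 to 70.1%), and its relative ratios were 0.15 and 0.41. The part of the chromosome in the 3T3 heights of this window was not tested. The longest run was of 3 3T3 summits from 97223624 to 97231562, no dendritic cell run of 3 was found, and the longest gap was 18.4 kb, from 97278020 to 97296386.

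Cxcl1 and Cxcl2 are ligands of CXCR2 that attract neutrophils. Their window held a stretch with summits of 3T3 alone: 6 3T3 summits from 91226154 to 91269215 scored 22, 95, 53, 112, 24 and 83 over 43.1 kb, and none was shared. The first of them lay 1070 bp from a dendritic cell summit of 37 at 91225084, just outside the limit for sharing. The dendritic cell list had no summit from 91225084 to 91282102, 57018 bp, the widest spacing of that list in the windows. On both sides of it shared sites resumed, at 91223042 and at 91286589. This stretch was also singled out after its values were seen.

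The highest dendritic cell summits of the Cxcl1/Cxcl2 window were 84 at 91282102 and 81 at 91306628, neither of them shared. The highest 3T3 summits were 130 at 91304218, which lay 2410 bp from the dendritic cell summit of 81, and 112 at 91262185, inside the 3T3 stretch. Of the 13 pairs, 3 were at least 2-fold higher in 3T3 relative to the median pair and 1 in dendritic cells. The 3T3-leaning pairs were 91286589 with 34 in dendritic cells and 99 in 3T3, 91186732 with 36 and 96, and 91297424 with 25 and 46. The dendritic-cell-leaning pair was 91332653 with 50 in dendritic cells and 20 in 3T3. At 91186732 and at 91197546 the summits of the lists lay 3 bp apart, so sites placed at nearly the same base could differ in height (36 and 96) or be close in it (36 and 33).

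The other 8 pairs here had relative log2 ratios from -0.85 to 0.77. The longest dendritic cell run held 4 summits from 91197546 to 91207223 with scores from 30 to 58. In 3T3 the longest runs held 4 each, from 91214527 to 91226154 and from 91324747 to 91337267. The longest gap without either list was 22.5 kb, from 91337267 to 91359740.

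Cxcl10 is the interferon-induced ligand of CXCR3 and attracts T cells. In its window the shared sites ran from percentile 10.6 to 81.7 of the dendritic cell list and from 1.69 to 89.3 of the 3T3 list. The 8 pairs were 92737590 with 52 in dendritic cells and 33 in 3T3, 92747860 with 44 and 18, 92751273 with 32 and 62, 92757430 with 21 and 17, 92761606 with 39 and 73, 92778578 with 63 and 55, 92782202 with 45 and 45, and 92813622 with 43 and 26. Of these, 5 lay below the median pair, towards dendritic cells, and 3 above it. The median relative log2 ratio was -0.13, the lowest of the windows.

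The tallest summit of either list in the Cxcl10 window was not shared. In dendritic cells the 2 highest were 91 at 92804821 and 68 at 92838792, with the nearest 3T3 summit 1645 and 26118 bp away. In 3T3 the tallest, 91 at 92797141, lay 7680 bp from a dendritic cell summit and ended a run of 3 3T3 summits from 92789580. The second, 73 at 92760964, was shared. A dendritic cell run of 3 lay from 92775452 to 92782202, and the longest gap, 25.2 kb, ran from 92813622 to 92838792. The dendritic cell list went on to the right edge of the window, where the 3T3 list had no summit after 92812674.

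Heights at shared sites were compared as log2 ratios of 3T3 to dendritic cells, less the median of all 24378 pairs of mutually nearest summits. The 46 pairs inside the windows had a median of 0.26 and ran from -1.72 to 1.66. A lean of 2-fold or more towards 3T3 was found at 8 pairs (17.4%, background 11.9%) and towards dendritic cells at 4 (8.70%, background 11.6%). Ratios were above the median pair at 29 pairs and below it at 17. Against pairs of the same chromosome the median was 0.16. Window medians were 0.36 at Ccl2/Ccl7 and at Ccl3/Ccl4/Ccl5, 0.28 at Ccl22/Ccl17 over 2 pairs, and 0.17 at Cxcl1/Cxcl2. The order-statistic 95% interval of the overall median ran from -0.06 to 0.46 and included 0, so no overall lean in height was detectable.

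**Figure D5:**
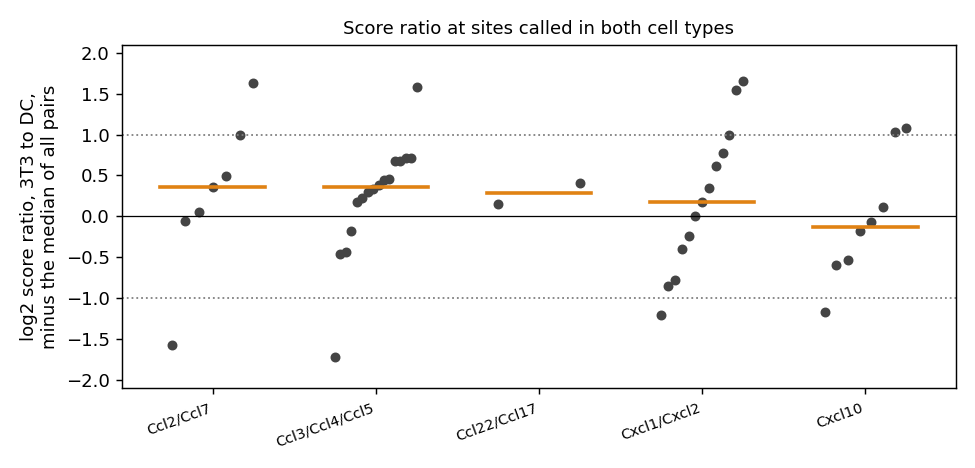
Height at each pair of shared summits as the log2 ratio of the 3T3 score to the dendritic cell score, less the median of all pairs (vertical axis), by window. Points are pairs, orange bars are medians and dotted lines mark 2-fold: pairs leaning to 3T3 and to dendritic cells stand side by side in every window with more than 2 pairs.

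Summits placed at nearly the same base were found in 3 of the windows. At 5 of the 46 pairs (10.9%) the summits lay within 10 bp, against 4.91% of all pairs, and the median distance of the window pairs was 140 bp, against 182 bp. The scores at these 5 sites were 33, 61, 23, 36 and 36 in dendritic cells and 29, 69, 29, 96 and 33 in 3T3. The 3T3 score of 96 stood at percentile 95.2 of its list, and all the others stood at percentile 87.7 or lower of theirs.

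The edges of the windows were placed by gene and cut through marked ground in places. At the right edge of the Ccl3/Ccl4/Ccl5 window the last dendritic cell summit inside scored 37 at 83542276 and the first outside 106 at 83551446. The corresponding 3T3 summits scored 84 at 83543646 and 59 at 83551330. To the right of the Ccl2/Ccl7 window the dendritic cell list had no summit from 82011418 to 82384468, and the 3T3 list none from 82020274 to 82087663. That block of marked chromatin therefore ended inside its window.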

How the data were processed

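Of 16 samples, the lists of H3K4me1 summits of 2 were used, and 14 were left out. Per the labels' protocols, fixed nuclei were sonicated, the DNA sheared again to about 300 bp, amplified for 18 cycles and read as single reads of 36 bp. Per the submitters' processing notes, reads were aligned with Bowtie and peaks called with MACS 1.4 on mm9. Per the file headers, calling used a p threshold of 1e-04 and a shift of 150 bp, without a model or a local background. Use of input DNA for calling is not stated in these sources. For each peak the authors deposited a 1 bp summit and an unnamed score, taken as a signal: MACS writes the height at the summit there. All scores are whole numbers of 13 or more. The lists have no stated common scale, so scores are ranked within a list or given as ratios relative to the median pair. The depth is unknown, since the sources used here give no read totals.

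Summits were counted in the windows, positions 1-based. Shared means a summit of the other list within 1000 bp, and pairs are mutually nearest. Tiles are non-overlapping stretches of a window's length, from the start of each autosome and the X chromosome to its last summit. Named in the text are the 2 highest summits of each list and window, pairs, the run with the most summits no more than 5000 bp apart (3 or more), and the longest gap. The windows, lists and rules were chosen with earlier results of these data known. The overlap and merging code was tested on simulated data. Alternatives were other shared distances, top-scoring summits, merging, other edges and other scalings. Promoter sequences and gene order are from RefSeq, GRCm38.p6. Python 3.11.15, numpy 2.4.6, pandas 2.3.3, scipy 1.17.1 and matplotlib 3.10.9 were used.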

Additional observations from a re-analysis of the deposited data

How the results depend on the processing

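Keeping only the highest-scoring summits, with peak calling left as it was, changed the counts and the sharing. With the 39898 highest-scoring summits of each list, the windows held 57 dendritic cell and 72 3T3 summits. Of these, 28.1% (17.0 to 41.5) and 22.2% (13.3 to 33.6) were shared, against 22.3% of all the highest-scoring summits in each list. Both intervals included that level. The order of the windows by sharing also changed in this setting, with Cxcl10 still highest in 3T3. The shared share was 29.2 and 26.7% within 250 bp (whole lists 17.8 and 17.3%), 34.9 and 31.9% within 500 bp (23.0 and 22.4%), and 62.3 and 56.0% within 2000 bp (40.8 and 39.6%), above the whole list at each distance. Merging summits within 1000 bp left both counts, 106 and 116, and both median scores as they were. Windows widened by 50 kb on both sides held 144 and 150 summits, and windows narrowed by 20 kb held 87 and 96. The log2 odds ratio of dendritic cell to 3T3 summits, relative to the whole lists, was -0.09 (-0.49 to 0.30). It was -0.01 relative to the same chromosomes and between -0.16 and 0.02 with each window left out in turn. The median ratio at pairs, 0.26, was 0.27 and 0.16 under other scalings. No paired analysis was possible because each cell type has 1 library and the result comes from no test. With the depth unknown, a site without a summit is one where none was called. Input DNA and acetylation were not analysed here.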
